A study of Mus musculus with 15 samples.

Results

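The exonic Ago2-let-7a peaks were the 694 of 4202 peaks in the Ago2-let-7a list whose annotated genomic location was exon (16.5%, 95% Wilson interval 15.4 to 17.7). They lay on 591 genes. P19 cells, which derive from a mouse embryonal carcinoma and stand in for embryonic stem cells, were transfected with a let-7a mimic and a control siRNA, and Ago2 was mapped by HITS-CLIP, in which proteins are crosslinked to RNA by UV light, immunoprecipitated, and the bound fragments sequenced. The authors listed a peak as Ago2-let-7a when its signal with the mimic exceeded that of cells with a control mimic and control siRNA. Ago2 was also mapped in cells with the let-7a mimic and an siRNA against Sfpq (siSfpq) and in cells with siSfpq and the control mimic, and Sfpq in cells with the control mimic and either the control siRNA or siSfpq. The labelled samples hold no group of Ago2 in cells with the control mimic and control siRNA, the baseline of the Ago2-let-7a list. Each of the 5 labelled groups had 3 replicates, which the authors merged before calling peaks, so the lists hold 0 values per replicate and give no spread between cultures. The p-values compare peaks or genes and not cultures, peaks of the same gene are not independent, and intervals cover counting error only, with the read depth behind a peak unknown. Since P19 cells do not express mature let-7 before differentiation per the study, the peaks describe a transfected miRNA.

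Ago2 is the Argonaute protein that holds a mature miRNA and is guided by it to partly complementary sites on mRNAs, where it recruits Tnrc6 proteins and the Ccr4-Not deadenylase. Most known functional sites lie in the 3′UTR, while Ago2 also crosslinks to coding sequence, where translating ribosomes pass over it. let-7 is a family of miRNAs that rises during differentiation and represses growth and stem cell genes such as Lin28a. Sfpq is a nuclear RNA-binding protein of the paraspeckle family that acts in transcription, splicing and RNA retention. The question here was which coding regions carried Ago2 after let-7a transfection, and how many of these peaks were in the authors' lists of peaks that fell on Sfpq knockdown. Such peaks are called dismissed, though reduced need not mean gone, and all other peaks of the list kept. Kept does not mean unchanged, because a let-7a peak that also changed with siSfpq and no mimic could not be listed as dismissed.

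The sequences shown are mature let-7a and the sites that pair with its seed, bases 2 to 8, inside exonic peaks, because they are the longest seed matches to the transfected miRNA that these coding peaks held. The miRNA is credited to RefSeq (GRCm38.p6), with the seed in capitals.
let-7a: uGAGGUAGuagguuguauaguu
A match to bases 2 to 8 was held by 8 exonic peaks (1.15%, 0.585 to 2.26), beside 39 of all 4202 peaks (0.928%) and 12 of 987 3′UTR peaks (1.22%). Their sites are given as 30 nt of the mm10 genome on the transcribed strand, 5′ to 3′, with the bases complementary to the seed in capitals.
Plekhm1, chr11:103394980-103395009, minus strand: tctctgaactcgaccctctcaCTACCTCtg
Sall1, chr8:89032503-89032532, minus strand: aagcagctcccccacgtccagCTACCTCag
Slc7a1, chr5:148352137-148352166, minus strand: tgtccccaagacgggctcagcCTACCTCta
Kdelr2, chr5:143419517-143419546, plus strand: ggctgagaccatcaccacccaCTACCTCtt
Trib1, chr15:59649315-59649344, plus strand: tgagtgctcgagtccccccgaCTACCTCag
N4bp2, chr5:65791077-65791106, plus strand: cacagcctgtgaggaagaaggCTACCTCct
Rhobtb1, chr10:69270099-69270128, plus strand: cctctgcttcaggcgcccttcCTACCTCcg
Patl1, chr19:11939753-11939782, plus strand: cttctgcaacagctaatgaacCTACCTCag
All 8 sites lay in coding sequence. In Sall1, Trib1 and Patl1 the base after the match was an A, which makes the site an 8mer, the strongest canonical class.

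Matches to let-7a were rare in exonic peaks. A match to bases 2 to 7 (TACCTC on the transcribed strand) occurred in 15 of 694 peaks (2.16%, 1.31 to 3.54), beside 2.19% of all 4202 peaks and 12 of the 694 windows of equal length shifted by 200 nt (1.73%, 0.992 to 3). The share was thus near both. The windows were shifted along the genome, so some can lie outside coding sequence, and they were not matched for GC content. In 3′UTR peaks it was 30 of 987 (3.04%, 2.14 to 4.31), and the test did not separate the locations (odds ratio 0.705, 95% interval 0.376 to 1.32, adjusted exact p = 0.288, two-sided Fisher's exact test, adjusted over 12 tests by Benjamini-Hochberg, as for every adjusted p below). The 15 sites comprised 3 8mers, 5 7mers matching bases 2 to 8, 2 7mers with a match to bases 2 to 7 and an A after it, and 5 6mers. Their first base fell on codon bases 1, 2 and 3 in 6, 4 and 5 cases, so no reading frame held most of them. The sites with the shorter match lay on Shroom2, Sox2, Plxna1, Arhgef11, Chd8, Fzd2 and Eps15l1. Fzd2 encodes a Wnt receptor and Sox2 a transcription factor of stem cells, and their peaks scored 8 and 13. Of the 15 peaks, 10 were dismissed and the 5 of Sall1, Slc7a1, Kdelr2, Patl1 and Chd8 were kept. Of these kept peaks, Sall1 (a transcription factor of stem cells and embryonic organs), Slc7a1 (a cationic amino acid transporter) and Kdelr2 (a receptor that returns proteins to the endoplasmic reticulum) overlapped or abutted an exonic Sfpq peak, while that of Patl1, a decapping cofactor, was 44171 nt from any.

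Exonic peaks resembled the rest of the list in size and score, and had a higher median GC content. Their length ranged from 15 to 290 nt with a median of 75 nt (quartiles 60 and 95), the same median as in 3′UTR and intronic peaks. The dCLIP score, the authors' measure of the difference between conditions with a threshold of 7, ranged from 8 to 44 with a median of 10, against a highest score of 235 in 3′UTRs and 217 in introns. The median GC content was 56.4%, compared with 48.8% for 3′UTR and 50.7% for intronic peaks. Only 7 of the 694 had over 50% of their bases in soft-masked repeats, against 596 of the 3508 other peaks (17.0%).

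The label exon left coding exons, since UTRs and non-coding RNAs have labels of their own, so touching coding sequence is no separate support. The listed transcript was found in GRCm38.p6, of which mm10 is another name, for 687 of 694 peaks, and all 687 touched its coding sequence, with 564 wholly inside it. Peaks were spread along the coding sequence from end to end, with the median centre at 56.1% of its length and 391 of 687 centres at 50% or beyond (56.9%, 53.2 to 60.6). The first 10% of the coding sequence held 48 peaks and the last 10% held 101, while 33 peaks touched the stop codon. Host exons were long: their median was 389 nt, against 144 nt for all 9027 coding exons of the same transcripts. Long exons also hold more bases, and exons of 1000 nt or more carried 244 of 687 peaks (35.5%, 32.0 to 39.2) and 30.5% of the coding bases. An exon boundary was crossed by 91 peaks, and 169 lay in the last exon. The dismissed share hardly varied with position: it was 77.7% (72.6 to 82.1) before 50% of the coding sequence and 76.0% (71.5 to 79.9) beyond. It was 80.5% (73.8 to 85.7) in last exons and 75.5% (71.6 to 79.0) in other exons, with overlapping intervals.

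**Figure D1:**
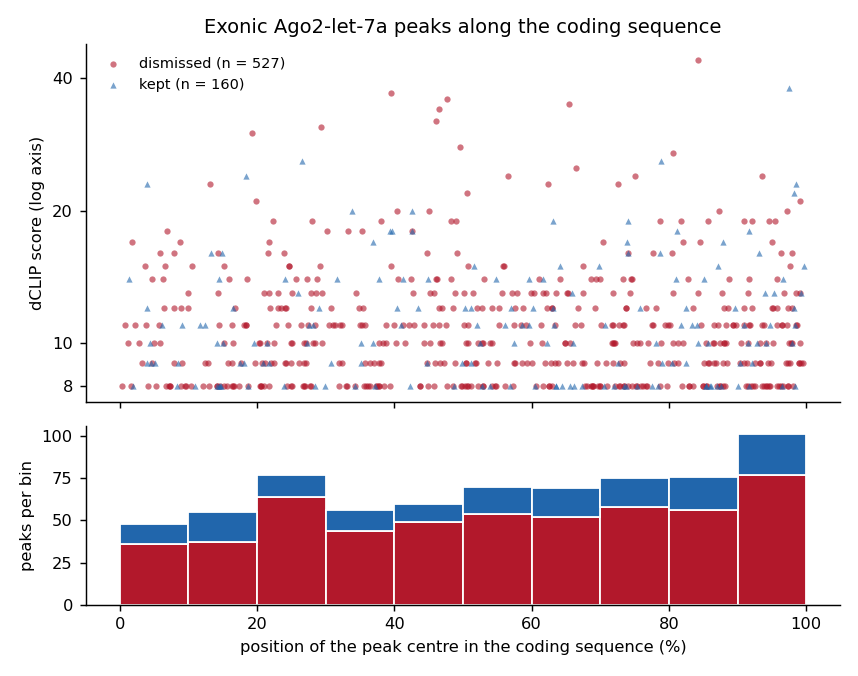
The upper panel plots the dCLIP score (log axis) of each exonic peak against the position of its centre in the coding sequence (percent of its length), with circles for 527 dismissed and triangles for 160 kept peaks whose transcript was found. The lower panel counts them in bins of 10%, dismissed below and kept above, and the last bin, with 101 peaks, is the tallest.

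The highest-scoring exonic peak lay on Sall1 (score 44, chr8:89030060-89030194, minus strand, exon 3 of 4). It overlapped an exonic Sfpq peak and was dismissed in the close class, which the authors set at under 500 nt from an Sfpq peak. The other Sall1 peak, with the let-7a 8mer, scored 26 in the same exon, also overlapped an exonic Sfpq peak and was kept. The next was on Peg10, an imprinted gene of retrotransposon origin (score 38, chr6:4757130-4757199, kept). Mbd6, a protein of the methyl-binding family, scored 37 and Mcoln1, a lysosomal cation channel, 36, and both peaks were dismissed in the far class, which the authors set at 500 to 7000 nt from Sfpq. Ddit4, a stress-induced inhibitor of mTORC1, carried the longest exonic peak (290 nt, score 35, dismissed close). That peak ended 94 nt before the end of the coding sequence. Next came Mtcl1, a microtubule crosslinker (34, very far, over 7000 nt), Ccng2, an unconventional cyclin linked to cell cycle arrest (32, far), Hs6st1, a heparan sulfate sulfotransferase (31, far), Plekhm1, an adaptor of lysosome fusion (30, far) and Hcfc1, a cell cycle cofactor of transcription (28, far). Of these 10 peaks, Peg10's was the only one kept. A high score did not go with a clearly different dismissed share: 74 of 103 exonic peaks with a score of 15 or more were dismissed (71.8%, 62.5 to 79.6), 241 of 312 with 10 to 14 (77.2%, 72.3 to 81.5) and 218 of 279 with 8 or 9 (78.1%, 72.9 to 82.6).

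Most genes carried 1 exonic peak (514 of 591), 59 carried 2 and 18 carried 3 or more. Prrc2a, a large RNA-associated protein, had 6, spread from 21.4% to 87.9% of its coding sequence, with scores of 17, 12, 8, 14, 18 and 10 from the 3′ end of the gene to its 5′ end. The peaks with scores of 14 and 18 were dismissed and the other 4 kept, and all 6 lay within 21 nt of a recruited peak, that is a peak higher with let-7a and siSfpq than with let-7a alone. Peg10 had 5 peaks, all within 106 nt of an exonic Sfpq peak. Those scored 18, 20 and 19 at 35.3%, 45.0% and 63.1% of a coding sequence of 1131 nt, and 8 and 38 at 52.8% and 97.5% of one of 3021 nt, since the list assigns them to transcripts of different coding length. The first pair was dismissed close and the other 3 were kept. Slc2a3, a glucose transporter, had 4 with scores of 26, 8, 14 and 11, of which that scoring 8 was dismissed. The chromatin gene Kmt2d, a histone H3 methyltransferase, and Lama5, a laminin chain of basement membranes, had 4 each and all were dismissed, in Lama5 as 1 far and 3 very far peaks.

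Among genes with 3 exonic peaks, patterns went from all dismissed to all kept. Trib1, a pseudokinase adaptor of a ubiquitin ligase, had all 3 dismissed in the far class, although they lay at least 274946 nt from any listed Sfpq peak, and Zbtb7a, a transcriptional repressor, all 3 as very far peaks, with the nearest Sfpq peak at least 33916 nt away. Plekhm1 also had all 3 dismissed. Ccng2 had 2 dismissed, Hcfc1 2 and Tnrc6c, a scaffold of miRNA silencing, 2. Tcp1, a subunit of the chaperonin that folds actin and tubulin, kept all 3, with scores of 12, 8 and 13. Pkm also kept all 3, with scores of 14, 14 and 12. In the 77 genes with several exonic peaks, all were dismissed in 36 genes, none in 10 and some in 31, so peaks on the coding sequence of the same mRNA often differed.

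**Figure D2:**
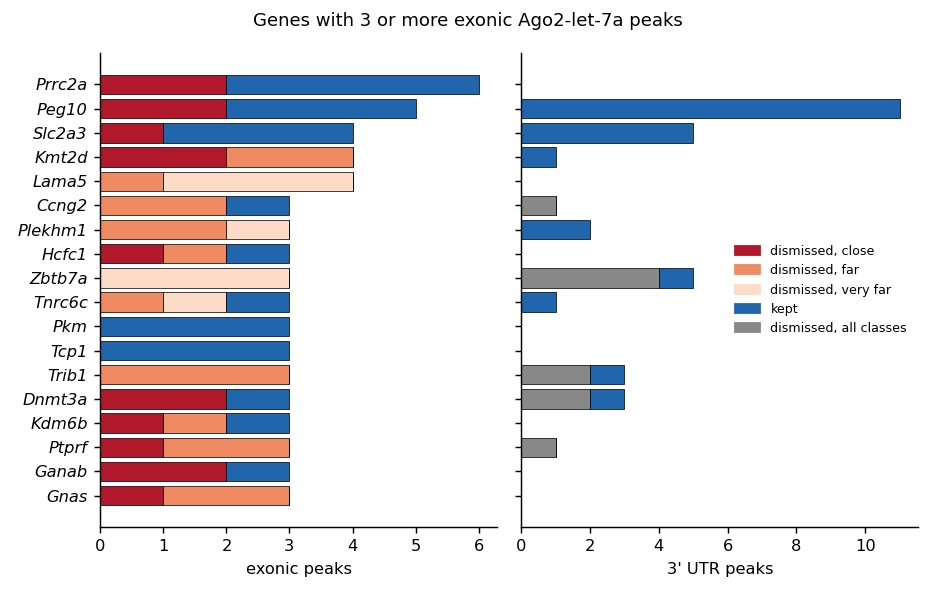
Bars count peaks on the 18 genes with 3 or more exonic Ago2-let-7a peaks, exonic peaks on the left by class and 3′UTR peaks on the right as dismissed or kept. Prrc2a leads with 6 exonic peaks and no 3′UTR peak, and Peg10 has 5 exonic and 11 kept 3′UTR peaks.

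Of the 694 exonic peaks, 533 were dismissed (76.8%, 73.5 to 79.8), beside 80.2% of all Ago2-let-7a peaks. By class, 184 were close, 242 far and 107 very far, and 161 were kept. The clear difference was with introns, where 1422 of 1509 peaks were dismissed (94.2%, 92.9 to 95.3; odds ratio of exonic to intronic 0.203, 0.153 to 0.268, adjusted exact p = 1.80e-29, Fisher's exact test). Against all other locations the odds ratio was 0.784 (0.645 to 0.954, adjusted exact p = 0.022) and against 3′UTRs, with 711 of 987 dismissed (72.0%, 69.2 to 74.7), it was 1.29 (1.03 to 1.61, adjusted exact p = 0.0382). Neither of the latter 2 calls held when each gene was counted 1 time per location (odds ratios 0.822 and 1.19, adjusted exact p = 0.111 and 0.233) or from a score of 10 (0.847 and 1.18). The call against 3′UTRs also ended without Peg10, Prrc2a, Slc2a3, Lama5 and Kmt2d (1.25, adjusted exact p = 0.0669). All 11 exonic peaks on the strand opposite to their gene were dismissed, and without them this odds ratio was 1.26 (adjusted exact p = 0.057).

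**Figure D3:**
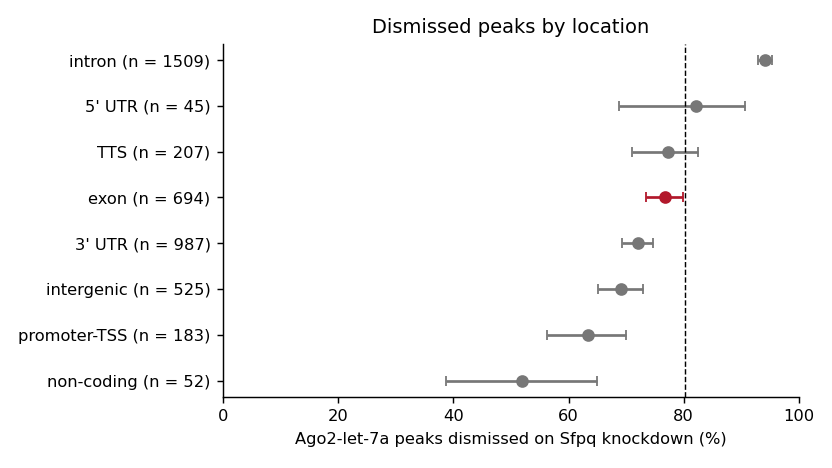
Points give the percentage of Ago2-let-7a peaks dismissed in each annotated location with 95% Wilson intervals, n peaks per location and a dashed line at 80.2%, the share of all peaks. Exons, at 76.8%, lie between 3′UTRs at 72.0% and introns at 94.2%. TTS is the region around the transcription termination site and promoter-TSS that around the start site.

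Exonic peaks lay near Sfpq about as often as the list as a whole. Within 500 nt of any listed Sfpq peak were 208 of 694 (30%, 26.7 to 33.5), beside 30.7% of all peaks, and 99 of them overlapped it. All 208 had their nearest Sfpq peak on the same strand, and for 181 it was itself exonic. Within 500 nt of an exonic Sfpq peak were 187 (26.9%, 23.8 to 30.4), beside 6.26% of all peaks, a background that peaks outside exons keep low by their position. The matching share, of 3′UTR peaks with a 3′UTR Sfpq peak under 500 nt away, was 536 of 987 (54.3%, 51.2 to 57.4). Exonic peaks were thus less often near an Sfpq peak of their own location (odds ratio 0.310, 0.252 to 0.383, adjusted exact p = 9.79e-29, Fisher's exact test). Likewise 184 of 533 dismissed exonic peaks were classed as close (34.5%, 30.6 to 38.7), beside 33.7% of all dismissed peaks, against 400 of 711 in 3′UTRs (56.3%, 52.6 to 59.9; odds ratio 0.410, 0.325 to 0.517, adjusted exact p = 8.41e-14). Sfpq peaks differ in number between locations, which this comparison does not correct for.

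Exonic peaks near Sfpq were dismissed less often than those farther away. Among peaks within 500 nt of an exonic Sfpq peak 112 of 187 were dismissed (59.9%, 52.7 to 66.7), and 421 of 507 among the rest (83.0%, 79.5 to 86.1; odds ratio 0.305, 0.210 to 0.443, adjusted exact p = 1.13e-09, Fisher's exact test). For any Sfpq peak the counts were 123 of 208 and 410 of 486 (0.268, 0.185 to 0.388, adjusted exact p = 1.06e-11). By distance, the share was 63.6% (53.8 to 72.4) of overlapping peaks, 55.0% (45.7 to 64.1) of others under 500 nt away, 79.8% (73.4 to 85.0) at 500 to 7000 nt and 87.1% (82.9 to 90.4) from 7000 nt. In 3′UTRs the same bins held 60.6%, 67.4%, 79.7% and 83.6%. The authors' classes could not be rebuilt from the listed Sfpq peaks, since of 184 exonic peaks in the close class 123 had one under 500 nt away and 43 were 7000 nt or more from any, as were 114 of the 242 in the far class, those of Trib1 and Plekhm1 among them. With the authors' class used for dismissed peaks and the listed distance for kept ones, the odds ratio was 0.471 (0.330 to 0.674, adjusted exact p = 6.72e-05).

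**Figure D4:**
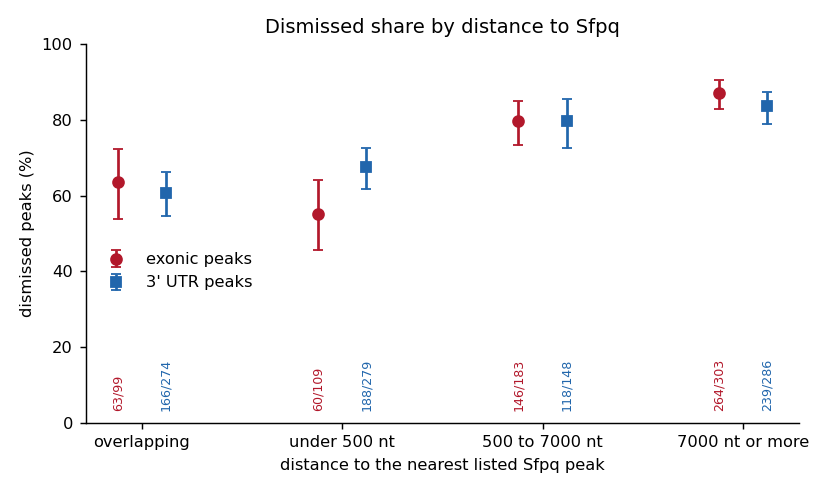
Points give the percentage of peaks dismissed, with 95% Wilson intervals, by distance to the nearest listed Sfpq peak, circles for exonic and squares for 3′UTR Ago2-let-7a peaks, with dismissed over all peaks printed above the axis. The exonic share is 63.6% and 55.0% in the nearer bins and 79.8% and 87.1% in the farther ones.

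Examples stood on both sides near exonic Sfpq peaks. Of the dismissed ones, the highest after Sall1 (44) and Ddit4 (35) was Lin28a, the RNA-binding inhibitor of let-7 maturation. It had 2 peaks that overlapped Sfpq, in exon 4 (score 27, chr4:134006175-134006279, 70 nt before the end of the coding sequence) and exon 2 (score 11). Both were dismissed close and neither had a match to the let-7a seed. Epc1 (23), a subunit of the NuA4 histone acetyltransferase, Skil (21), a repressor of Smad signaling, Srsf2 (20), a splicing factor, Peg10 (20) and Cnot6 (19), a deadenylase of the Ccr4-Not complex, followed. Of the kept ones, Peg10 (38), Slc2a3 (26) and Sall1 (26) led, with Actb, cytoplasmic actin (23, at 3.95% of the coding sequence), Rlim, a ubiquitin ligase (20), Peg10 again (19), Txndc5, a protein disulfide isomerase (18), and Rps10, a protein of the small ribosomal subunit (18). Actb also carried a dismissed close peak (score 15) 241 nt from an exonic Sfpq peak. Peg10, Sall1 and Actb therefore each had kept and dismissed exonic peaks beside Sfpq.

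Exonic peaks shared genes with 3′UTR peaks more often than intronic peaks did. Of the 591 genes, 130 also had a 3′UTR peak (22%, 18.8 to 25.5), against 102 of 1021 genes with intronic but no exonic peaks (9.99%, 8.30 to 12; odds ratio 2.54, 1.92 to 3.37, adjusted exact p = 1.86e-10, Fisher's exact test), where 30.9% of all 2455 genes of the list had a 3′UTR peak. The 30.9% includes genes listed for a 3′UTR peak alone, which raises it, so it is not a like background for the other shares. The 130 genes with both kinds held 179 of the 694 exonic peaks. Whether the exonic peak was dismissed together with a 3′UTR peak of its gene could not be settled: 104 of 133 exonic peaks were dismissed on genes with a dismissed 3′UTR peak (78.2%, 70.4 to 84.4) and 30 of 46 on genes whose 3′UTR peaks were all kept (65.2%, 50.8 to 77.3; odds ratio 1.91, 0.919 to 3.98, adjusted exact p = 0.124). All exonic and all 3′UTR peaks were dismissed in 60 of the 130 genes and none in 6. In 17 genes the exonic peaks were all dismissed and the 3′UTR peaks all kept, and in 9 the reverse held.

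The other 38 genes had other combinations, among them 10 genes taken as those with most peaks in both places. Tnrc6b, Trib1 and Dnmt3a had as many peaks as Sox11, the last of these, and were cut from the 10. Tnrc6b had its exonic peak and all 5 3′UTR peaks dismissed, while Trib1 and Dnmt3a each had 2 of 3 3′UTR peaks dismissed. Peg10 had 11 3′UTR peaks and Slc2a3 had 5, all kept, beside 2 of 5 and 1 of 4 exonic peaks dismissed. Zbtb7a had 4 of 5 3′UTR peaks and all 3 exonic ones dismissed. Skil had 6 3′UTR peaks, 3 dismissed, and a dismissed exonic peak. Lin28a had its 2 exonic peaks dismissed and 1 of 4 3′UTR peaks. Scd2, a fatty acid desaturase, had 1 of 2 exonic and 1 of 5 3′UTR peaks dismissed. Bcl11a, a transcriptional repressor of hematopoietic and neural cells, kept its exonic peak (score 19) and had 4 of 5 dismissed in the 3′UTR, while Map1b, a microtubule-associated protein of neurons, had its exonic peak and 3 of 5 dismissed. Aff4, a scaffold of the super elongation complex, kept both exonic peaks and 2 of 4 in the 3′UTR, and Sox11, a transcription factor of neural progenitors, had its exonic peak and 2 of 5 dismissed.

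Fewer exonic than 3′UTR peaks lay near Ago2 peaks of other conditions. Within 500 nt of a recruited let-7a peak were 190 of 694 exonic peaks (27.4%, 24.2 to 30.8), beside 24.4% of all peaks, against 500 of 987 in 3′UTRs (50.7%, 47.5 to 53.8; odds ratio 0.367, 0.298 to 0.452, adjusted exact p = 2.59e-21, Fisher's exact test). A recruited peak was overlapped by 24 exonic peaks (3.46%, 2.33 to 5.09), beside 3.02% of all peaks and 52 of 987 in 3′UTRs (5.27%). With overlap as the criterion the odds ratio of exonic to 3′UTR peaks was 0.644 (adjusted exact p = 0.114, Fisher's exact test). Those 24 were 19 of 161 kept peaks (11.8%, 7.69 to 17.7) and 5 of 533 dismissed ones (0.938%, 0.401 to 2.18), among the latter that of Ddit4, while 3 kept peaks of Peg10 and 2 of Slc2a3 were in the former. The same dCLIP contrast of cells with and without siSfpq defines dismissed and recruited peaks, in opposite directions, so this split was given without a test. A control Ago2 peak, called in cells without let-7a from read counts of at least 10, was overlapped by 18 exonic peaks (2.59%, 1.65 to 4.06), beside 5.88% of all peaks and 93 of 987 in 3′UTRs (9.42%, 7.75 to 11.4; odds ratio 0.256, 0.153 to 0.428, adjusted exact p = 9.75e-09). They included peaks of Peg10 (control peak of 25 reads), Slc2a3 (18 and 14) and Tnrc6a (17), and 10 of the 18 were kept. Only 145 of the 2065 control Ago2 peaks were exonic, and 2997 of the 10264 recruited ones. Neither comparison corrects for how many such peaks each location holds. The study cites earlier work for its 2065 Ago2 peaks of P19 cells.

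The gene lists, drawn up with earlier results of these data known, differed in how many of their exonic peaks were dismissed, beside 80.2% of all peaks and 76.8% of exonic ones. Of 36 let-7 targets, 8 had exonic peaks (Lin28a, Trim71, Nras, Hic2, Insr, Acvr1b, Map1b and Notch2) and 16 had 3′UTR peaks. Of their 10 exonic peaks 7 were dismissed, and those of Trim71, a ubiquitin ligase of stem cells (score 8), Nras, a Ras GTPase (9), and a Hic2 peak (9) were kept. Of 31 genes of the silencing machinery 7 were found by symbol with 10 exonic peaks, 6 of them dismissed. This count leaves out Ago2, whose symbol the deposited list gives as a date. Ago2 had 2 exonic peaks (scores 12 and 9) and 1 3′UTR peak, all dismissed. Tnrc6a kept both (scores 24 and 13) and Pabpc1, the poly(A)-binding protein, its only peak (14), while the peaks of Tnrc6b, Larp1, Cnot6 and Cnot6l were dismissed.

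Exonic peaks on the listed chaperone and translation genes were mostly kept. Genes of similar name outside these lists went both ways. The exonic peaks of Dnaja3, Dnajc13, Dnajc16 and Eif2a were dismissed, and those of Dnajc14, Eif4ebp2 and Eif4ebp3 kept. Of 9 exonic peaks on 7 chaperone genes 1 was dismissed, that of Hspa8 (score 8). The kept ones were those of Tcp1, Calr (11), Hsp90ab1 (9), Hspd1 (9), Hsp90b1 (8) and Hspa5 (8), with a list median of 9, and 6 of the 9 lay within 500 nt of an exonic Sfpq peak. Of 5 exonic peaks on translation genes, only that of Eif4g1, the initiation scaffold, was dismissed (score 19). Rps10 (18), Eef1a1, an elongation factor (15), Eif3a (10) and Eif4b (8) kept theirs, all 4 near an exonic Sfpq peak. With so few peaks these counts are descriptions, and the part of each mRNA's level in them was not tested.

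The other lists had dismissed shares on either side of these values. Chromatin genes had the most, with 28 peaks on 16 of 33 genes and 23 dismissed (82.1%), among them Kmt2a (scores 25 and 8), all 4 of Kmt2d, both of Kmt2c, and those of the 5-methylcytosine oxidases Tet1 (19), Tet2 (8) and Tet3 (10). Dnmt3a, a DNA methyltransferase, had 2 of 3 dismissed, as had the histone demethylase Kdm6b, and Chd8, a chromatin remodeler, kept both. All 6 peaks on the listed splicing genes were dismissed (Srsf2, Srrm1, Srrm2, Snrnp200, Prpf8 and Hnrnpu), 4 of them near an exonic Sfpq peak. Splicing genes outside the list went both ways. The exonic peaks of Luc7l, Sugp1 and Ddx42 were dismissed, those of Rbm25, Plrg1 and Dhx16 kept, and Sf1 had 1 of 2 dismissed. Genes of the matrix and cell surface had 11 of 13 dismissed, with Fat1, a giant cadherin, keeping both of its peaks, and those of the cytoskeleton 5 of 6. Of 6 peaks on pluripotency genes 4 were dismissed, and they included the 2 of Sall1, the 2 of Lin28a and that of Sox2 (dismissed close). Of 18 peaks on 18 Zfp zinc finger genes 13 were dismissed, 3 of them close.

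**Figure D5:**
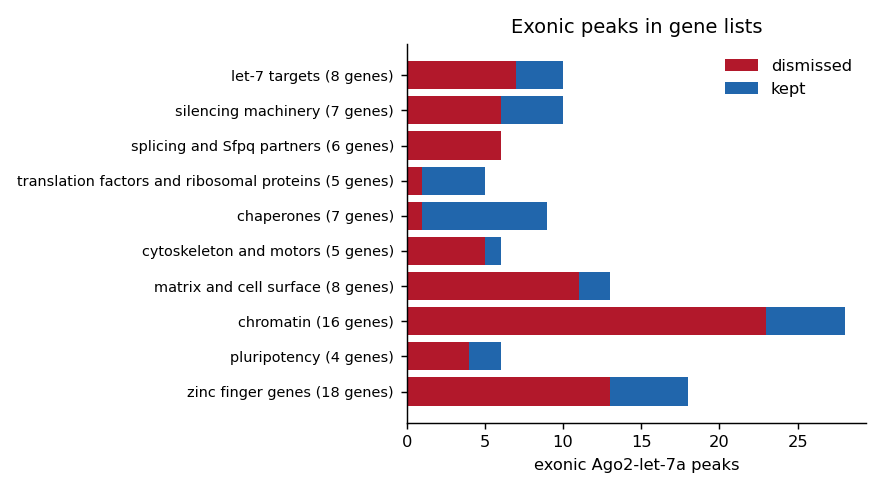
Stacked bars count the exonic Ago2-let-7a peaks on genes of each list, dismissed from the left and kept after them, with the number of genes that carried them. The bar of the silencing machinery leaves out Ago2, whose symbol was listed as a date. The listed chaperones, with 1 of 9 dismissed, and the listed translation genes, with 1 of 5, have mostly kept peaks. All 6 peaks on the listed splicing genes are dismissed.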

How the data were processed

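Crosslinked RNA of P19 cells was sequenced and, per the labels and the study's methods, trimmed with cutadapt and aligned to mm10 with STAR and Bowtie2 by the authors, whose versions the sources used here do not give. Replicates were merged and peaks called by the authors. Deposited peak values are a dCLIP score for the recruited, Sfpq and Ago2-let-7a lists, with a threshold of 7, and for the control Ago2 list the authors' read count per peak, with a minimum of 10. Other deposited columns, used as given, are position, location and accession. Of 11 lists, 7 were read and those of endogenous dismissed and recruited peaks were not used here.

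Dismissed peaks were matched to the Ago2-let-7a list by identical coordinates and strand. Distances run from edge to edge on either strand, and under 500 nt is near. Shares have 95% Wilson intervals and were compared by two-sided Fisher's exact tests with sample odds ratios, adjusted over 12 tests at a threshold of 0.05 (Python 3.11.15, scipy 1.17.1, pandas 2.3.3). Code was tested on simulated data. Transcripts and sequences came from RefSeq GRCm38.p6, and 12 exonic peaks had an older gene symbol updated. The alternatives tried covered counting genes, scores, distance limits, strand, overlap rules and seed length.

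The members, gene lists and tests were chosen with earlier results of these data known. Named genes were those of the 10 highest-scoring exonic peaks, the 10 with most exonic peaks, those with a match to let-7a bases 2 to 8, the 10 with most exonic and 3′UTR peaks, those of the 8 highest kept and 8 highest dismissed peaks near an exonic Sfpq peak, and list members with an exonic peak. Genes tied with the last of the 10 with most exonic and 3′UTR peaks were cut from that 10. Genes with the shorter let-7a match and the antisense peaks were named after their values were seen. So were Pkm and the genes outside the gene lists that are given beside them. Some members of the gene lists are not reported here.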

Additional observations from a re-analysis of the deposited data

How the results depend on the processing

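Of 81 values recomputed for 12 results under 15 settings, 3 of them added after the data were seen, 74 kept the direction and the side of the threshold, 7 lost the call and 0 turned direction. Part of the 74 repeat the main counts, because the setting changed no peak that entered the comparison. Examples are mRNA accessions only for exonic against 3′UTR peaks, dismissal by overlap of 1 nt, and same-strand Sfpq peaks for dismissal near Sfpq. Such values could not have differed and add no support. The lost calls concerned exonic against all other peaks dismissed (odds ratio 0.822, adjusted p = 0.111, with each gene counted 1 time per location, and 0.847, adjusted p = 0.257, from a score of 10, Fisher's exact test), exonic against 3′UTR peaks dismissed (1.19, 1.18, 1.26 and 1.25 with each gene counted 1 time per location, from a score of 10, without antisense peaks and without the 5 genes with most exonic peaks), and exonic against 3′UTR peaks beside recruited peaks (0.644 for overlap by 1 nt). Fewer peaks enter the first of these settings, and the cause was not tested further. For dismissal near an exonic Sfpq peak the 9 alternatives gave odds ratios of 0.255 to 0.324. No paired analysis was possible because the deposited lists come from merged replicates, and for the same reason no replicate could be left out. The number of reads behind each peak is unknown, so a kept peak of low depth cannot be told from an unchanged one.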

Other observations

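The exonic peaks on the strand opposite to their gene included those on Gnas (2 peaks), Usp36, Mapk15, Dcaf15, Mast4, Ccdc106, Cbarp, Tmem151b and Hirip3. Gnas is an imprinted locus with a known antisense transcript, and its 2 antisense peaks scored 9 and 8. Those of Mast4 and Hirip3 overlapped a control Ago2 peak of 15 and 10 reads.

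A search with the seed of miR-302b, an endogenous miRNA of these stem cells, found a match to its bases 2 to 7 (GCACTT) in 27 of 694 exonic peaks (3.89%, 2.69 to 5.60), 49 of 987 3′UTR peaks (4.96%, 3.78 to 6.50) and 154 of all 4202 peaks (3.66%, 3.14 to 4.28).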
